A study of Mus musculus with 14 samples.

Results

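The genes described here are those through which a mouse oocyte signals to, or hears from, the cells of its follicle. They are 6 of the 24064 genes in the count table and were chosen by name: the secreted ligands Gdf9, Bmp15, Bmp6 and Fgf8, the receptor gene Kit, and the gap junction gene Gja4. An oocyte grows inside a follicle of granulosa cells, the innermost of which, the cumulus cells, stay attached to it until after ovulation. The oocyte secretes GDF9 and BMP15, paired members of the TGF-beta family that act on granulosa cells through serine/threonine kinase receptors and Smad proteins, and it secretes BMP6 and FGF8 as further paracrine factors. In the other direction, KIT ligand made by granulosa cells binds the receptor tyrosine kinase KIT on the oocyte surface, and small molecules pass between both cell types through gap junctions built on the oocyte side from connexin 37, the product of Gja4.

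The data were RNA-seq counts from single ovulated oocytes, of which 5 were controls and 5 lacked maternal Kdm1a (Lsd1), a histone lysine demethylase. Of the controls, 4 were Kdm1a wt/wt oocytes of strain C57BL/6J, named wt1, wt3, wt4 and wt5 here, and 1 was a flox/flox (f/f) oocyte, C3, of the mixed strain B6;129. The mutant oocytes, labelled mko/mko and named D1, D2, D3, D4 and D7, were of the mixed strain too and came from females with the floxed allele and a cre transgene driven by the Zp3 promoter, which is active in growing oocytes, so Kdm1a was intact in the earlier germline. The f/f oocyte carried the floxed allele without cre, and neither age nor the number of females was given in the labels. Separate animals were not stated for the oocytes, so p-values measure only the spread between these oocytes. The comparison asked how the stored transcripts of the oocyte differed in the absence of KDM1A.

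Promoter windows of 300 bases, most of it upstream of the start of a RefSeq transcript on GRCm38.p6, were found for 4 of the 6 members. Gdf9 and Fgf8 had no window in the table used. The RefSeq start used for Bmp6 lies downstream of the GENCODE gene start given for it later, so its window lies within the annotated gene. The windows of Bmp15 and Bmp6 are shown since they had the lowest and the highest number of CpG dinucleotides of the 4. They are written 5′ to 3′ on the strand of the gene, and capitals mark E-boxes (CANNTG), the motif bound by basic helix-loop-helix factors such as FIGLA.
Bmp15, chrX:6320675-6320974, minus strand: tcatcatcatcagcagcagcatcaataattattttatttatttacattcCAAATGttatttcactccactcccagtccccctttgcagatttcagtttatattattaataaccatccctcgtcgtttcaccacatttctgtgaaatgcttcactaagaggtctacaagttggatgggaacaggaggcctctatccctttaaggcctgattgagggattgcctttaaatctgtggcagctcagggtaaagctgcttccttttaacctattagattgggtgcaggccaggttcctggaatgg
Bmp6, chr13:38345466-38345765, plus strand: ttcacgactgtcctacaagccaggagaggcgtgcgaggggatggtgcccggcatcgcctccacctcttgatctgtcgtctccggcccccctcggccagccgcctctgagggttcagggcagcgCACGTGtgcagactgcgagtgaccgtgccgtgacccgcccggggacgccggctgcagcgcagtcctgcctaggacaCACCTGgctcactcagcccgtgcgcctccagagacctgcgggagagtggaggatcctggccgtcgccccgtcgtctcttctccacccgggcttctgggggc
The Bmp15 window had 2 CpG, 0.155 of the number expected from its base composition, and a GC content of 41.7%. The Bmp6 window had 27 CpG, 0.751 of the expected number, and a GC content of 69.3%. The windows of Kit, with 20 CpG, and of Gja4, with 16, were GC-rich like that of Bmp6. Motifs were searched on both strands. E-boxes were found once in Bmp15, Kit and Gja4 and at 2 places in Bmp6, and 72.3% of all 32544 promoter windows held one. TATAAA was found in Bmp15 alone of these 4 windows, against 13.6% of all windows. There it lies on the strand opposite to the gene and reads TTTATA as written. The NOBOX element TAATTG was in none of the 4 windows and in 8.01% of all. The nuclear receptor element AGGTCA was in none of the 4 and in 16.2% of all. A match describes the letters only.

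Total counts were 1375187 to 1892015 in the wt/wt oocytes, 6928548 in C3 and 2016701 to 6926076 in the mutant oocytes. For C3, D3, D4 and D7, 2 libraries with the same oocyte name were summed (Spearman correlation between the 2 libraries of 0.909 to 0.953, against at most 0.899 with another oocyte). Kdm1a had 27 to 85 counts in the wt/wt oocytes, 669 in C3 and 0 to 10 in the mutants (log2 fold change -5.02, adjusted p = 0.0011, edgeR), and since cre deletes only the first exon, counts from a shortened transcript remain possible. The oocyte marker genes, such as Zp2 and Zar1, summed to 17400 to 24800 CPM (counts scaled to library size) in the wt/wt oocytes, 46000 in C3 and 36300 to 73000 in the mutants. Of the 10 markers, 6 were called higher in mutants, against 14.7% of all genes. Mos, H1foo and Nlrp5 were not called, nor was Oosp1, with a log2 fold change of -0.29. Of 22 cumulus and granulosa cell markers, 11 were at 0 in every oocyte, among them Fshr, Inha, Amh, Foxl2, Grem1 and Ptx3. The 22 markers summed to 26.9 to 80.6 CPM in the wt/wt oocytes, 71.3 in C3 and 85.7 to 157 in the mutants, mostly from Cyp19a1. Of the 3 markers tested, Cyp19a1 alone had a positive log2 fold change (median -0.34), and Nr5a2 had 8.12 CPM in controls and 2.70 in mutants (adjusted p = 0.0915, edgeR). Cyp19a1, which encodes aromatase, rose from 37.7 ± 22.6 (SD, n = 5) to 105 ± 26.7 CPM (SD, n = 5; log2 fold change 1.48, adjusted p = 0.0263, edgeR), and was not called with library totals or without wt3. In C3 it was at 62.7 CPM, above the wt/wt mean of 31.5. Since strain and the naming of the libraries both split wt/wt from the rest, their part in any difference between wt/wt and the other oocytes cannot be told apart.

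Of the 6 members, 1 was called higher in mutant than in control oocytes (Gdf9), 1 was called lower (Bmp6), and 3 were tested and not called (Bmp15, Kit and Gja4). Fgf8 had too few counts to enter the test. Calls needed an adjusted p under 0.05 and a change of at least 1 on the log2 scale; p-values came from the quasi-likelihood test of edgeR and were adjusted by Benjamini-Hochberg over the 9198 genes kept. By that rule 25.9% of all genes kept were called, 14.7% higher and 11.2% lower, and nothing particular to the members follows from 2 calls, 1 of which (Bmp6) passed the filter on low counts only through the wt/wt oocytes. In none of the 5 did every mutant oocyte lie on one side of every control oocyte, which 16.2% of all genes did. Gdf9 alone had every wt/wt oocyte on one side of C3 and the mutants together, as did 16.1% of all genes. The median log2 fold change over all genes kept was 0.17.

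Gdf9, the ligand needed for follicles to grow past the primary stage, was the most abundant member and one of the most abundant transcripts of these oocytes. It lies on chromosome 11 of mm10 from 53431023 to 53437904 on the plus strand. The wt/wt oocytes wt1, wt3, wt4 and wt5 had 11167, 18955, 19285 and 34513 Gdf9 counts. The f/f oocyte C3 had 172617. The mutants had 131394, 85345, 104647, 178918 and 88155 (D1, D2, D3, D4 and D7). It was the gene with the second highest count in C3 and in each mutant oocyte (rank 2), and ranked 1 to 7 in the wt/wt oocytes.

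In CPM, computed over library sizes adjusted by TMM factors, the Gdf9 level was 6170, 8160, 7870 and 15400 in the wt/wt oocytes. It was 38200 in C3 and 71800, 51900, 37200, 27100 and 43800 in D1, D2, D3, D4 and D7. Every wt/wt oocyte lay below every other oocyte, and C3 lay inside the range of the mutants. Gdf9 rose 3.06-fold in mutant against control oocytes (log2 fold change 1.61, standard error 0.54, n = 5 and 5, adjusted p = 0.0356, edgeR). It was also higher in the f/f oocyte than in the wt/wt oocytes, by 4.06-fold (log2 2.02, standard error 0.50, adjusted p = 0.0319, edgeR), a call made for 3.49% of all genes. That estimate rests on 1 f/f oocyte, assumed to vary like the others. The call was lost under library totals (log2 0.99, adjusted p = 0.242, edgeR), upper-quartile scaling (adjusted p = 0.0805) and thinned counts (0.122), and without wt1 (0.0807), wt3 (0.149) or wt4 (0.135). Between mutant oocytes and the f/f oocyte the difference was 0.28 on the log2 scale (standard error 0.56, adjusted p = 0.813, edgeR), and between mutant and wt/wt oocytes it was 2.32 (adjusted p = 0.000638).

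As a share of all counts, without TMM factors, Gdf9 took 0.812% to 2.11% in the wt/wt oocytes, 2.49% in C3 and 2.58% to 5.60% in the mutants. On this scale each mutant lay above C3, by a margin that the libraries did not keep: the libraries of C3 had 2.81% and 2.18%, and those of D4 had 2.70% and 2.45%. The values are shares, so more Gdf9 RNA and less of other RNA in an oocyte cannot be told apart. The call of Gdf9 was lost without wt1, wt3, wt4, wt5, D1 or D2 (adjusted p of 0.0883, 0.0902, 0.0937, 0.0592, 0.0900 and 0.0645), and without C3 it was kept (log2 fold change 2.32). It was also lost with no filter on low genes (adjusted p = 0.0503), with every library as its own sample (0.101) and after removal of trends with GC content and transcript length (adjusted p = 0.127).

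**Figure D1:**
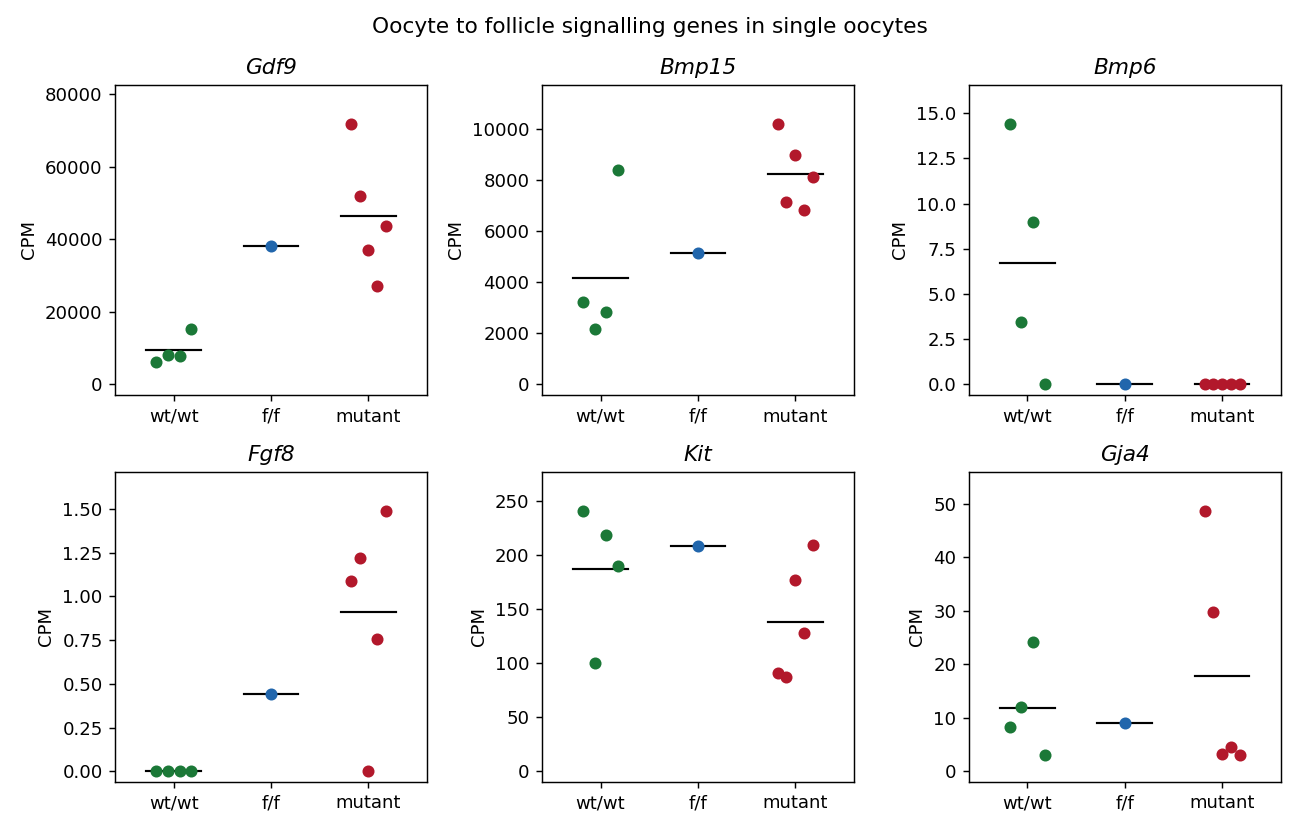
Level of each member in CPM (vertical axis, linear, a scale of its own in each panel) in the 4 wt/wt, 1 f/f and 5 mutant oocytes. Each point is an oocyte and the line is the mean of its group. For Gdf9 the wt/wt points, at 6170 to 15400 CPM, lie below the f/f point at 38200 and the mutant points at 27100 to 71800, whereas for Bmp15, Kit and Gja4 the groups overlap. Bmp6 is above 0 only in 3 wt/wt oocytes.

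Bmp15, the X-linked partner of Gdf9, lies on chromosome X from 6314107 to 6320721 on the minus strand. Its counts were 5846, 5045, 6954 and 18779 in wt1, wt3, wt4 and wt5, and 23313 in C3. The mutants, in the same order, had 18596, 11770, 25233, 45021 and 16338. As levels these were 3230, 2170, 2840 and 8400 CPM in the wt/wt oocytes, 5160 in C3 and 10200, 7150, 8970, 6830 and 8130 in the mutants. Of the controls, wt5 alone lay inside the mutant range, and C3 lay below every mutant.

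The mean Bmp15 level was 4360 ± 2520 CPM (SD, n = 5) in control and 8250 ± 1360 (SD, n = 5) in mutant oocytes. The difference of 0.92 on the log2 scale (standard error 0.41) did not pass the test (adjusted p = 0.104, edgeR). Neither did the differences between the f/f and wt/wt oocytes (0.31, standard error 0.59, adjusted p = 0.864) and between the mutant and f/f oocytes (0.68, standard error 0.62, adjusted p = 0.563). Without wt5, the log2 fold change was 1.34 and Bmp15 was called (adjusted p = 0.0261). It was also called by limma voom with sample quality weights (log2 fold change 1.33, adjusted p = 0.00244). The value was lower with library totals (0.48, adjusted p = 0.327, edgeR), and its sign turned in the ratio to the reference genes Hprt, Gapdh and Ppia (-0.18).

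Bmp6, a further TGF-beta family ligand of the oocyte, lies on chromosome 13 from 38345107 to 38500302 on the plus strand. It had 26, 8, 22 and 0 counts in wt1, wt3, wt4 and wt5. It was at 0 in C3 and in each of the 5 mutant oocytes, although each of these had more counts in total than any wt/wt oocyte. The Bmp6 level was 14.4, 3.44, 8.97 and 0 CPM in the wt/wt oocytes, and the 0 of wt5 lay with those of the mutants.

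Pooled over the 4 wt/wt oocytes, Bmp6 had 56 counts or 6.35 CPM (exact Poisson interval 4.80 to 8.25). Taking 3 counts over a group as the limit that a count of 0 allows, the level was up to 0.201 CPM in the mutants and up to 0.664 in C3. The exact Poisson interval of 0 counts reaches further, to 0.248 and 0.817 CPM. Interval and limits cover counting error only. Against the limit of 3 counts for the mutants, the pooled control level of 4.20 CPM was 20.8-fold higher. The pooled wt/wt level was 31.5-fold higher, both before the error of the pooled levels themselves. All 56 counts came from wt1, wt3 and wt4, and wt5 and C3 were at 0 like the mutants. These folds thus describe pooled counts and bound no difference between groups of oocytes. Bmp6 was called lower in mutant oocytes (adjusted p = 0.0168, edgeR), and the f/f and wt/wt oocytes did not differ past the threshold (adjusted p = 0.243). The gene passed the filter on low counts only through the wt/wt oocytes and did not pass it without wt1. By DESeq2 it was not called (adjusted p = 0.0857).

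The last 224 bases of Bmp6 overlap the end of Txndc5, which encodes an endoplasmic reticulum protein and lies from 38500079 to 38528824 on the minus strand. Whether the counting used the strand was not stated. Txndc5, named after its values were seen, had 71 to 211 counts in the wt/wt oocytes, 3070 in C3 and 915 to 2470 in the mutants. In wt5, the wt/wt oocyte with no Bmp6 count, Txndc5 had 77. Its part in the Bmp6 counts was not tested. The antisense gene 4930579J19Rik also overlaps Bmp6.

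Fgf8, which with BMP15 promotes glycolysis in cumulus cells, lies on chromosome 19 from 45736798 to 45742915 on the minus strand. It had no count in the 4 wt/wt oocytes, 2 in C3, and 2, 2, 0, 5 and 3 in D1, D2, D3, D4 and D7. These are so near to 0 that no fold is given. Pooled over the mutants the 12 counts made 0.806 CPM (exact Poisson interval 0.416 to 1.41). The 0 counts of the wt/wt oocytes allow up to 0.418 CPM by the same interval, and the 2 counts of C3 made 0.443 CPM (0.0536 to 1.60). The interval of the mutants overlapped both. It lay above 0.34 CPM, the wt/wt level at the limit of 3 counts used for Bmp6, so that overlap depends on the limit. Intervals and limit cover counting error only. Fgf8 had no edgeR test, and only its ratio to Gdf9, given below, was tested across oocytes.

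Kit, the receptor for KIT ligand, lies on chromosome 5 from 75574916 to 75656722 on the plus strand. Its counts were 436, 232, 536 and 425 in wt1, wt3, wt4 and wt5, and 939 in C3. The mutants, from D1 to D7, had 166, 144, 499, 846 and 420. The levels were 241, 99.9, 219 and 190 CPM in the wt/wt oocytes, 208 in C3 and 90.8, 87.5, 177, 128 and 209 in the mutants. The lowest levels were those of D1 and D2, the groups overlapped, and C3 lay among the wt/wt oocytes.

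The mean Kit level was 191 ± 54.4 CPM (SD, n = 5) in control and 139 ± 53.5 (SD, n = 5) in mutant oocytes. The difference of -0.47 on the log2 scale (standard error 0.36) did not pass the test (adjusted p = 0.356, edgeR). The f/f oocyte differed from the wt/wt oocytes by 0.15 (standard error 0.61, adjusted p = 0.948), and the mutants from the f/f oocyte by -0.58 (standard error 0.58, adjusted p = 0.599).

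Gja4, the connexin 37 gene, lies on chromosome 4 from 127311421 to 127314039 on the minus strand. It had 15, 28, 59 and 7 counts in wt1, wt3, wt4 and wt5, 41 in C3, and 89, 49, 9, 30 and 6 in D1, D2, D3, D4 and D7. The levels were 8.28, 12.1, 24.1 and 3.13 CPM in the wt/wt oocytes, 9.08 in C3 and 48.7, 29.8, 3.20, 4.55 and 2.98 in the mutants. D1 and D2 lay above every other oocyte, D3 and D4 lay at the lower end of the wt/wt range, and D7 lay just below it.

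The log2 fold change of Gja4 was 0.63 with a standard error of 0.75 (adjusted p = 0.567, edgeR). The differences of f/f from wt/wt (-0.39, standard error 1.32, adjusted p = 0.932) and of mutant from f/f (0.94, standard error 1.35, adjusted p = 0.725) did not pass the test either. Without D1 the sign turned (-0.12). D1 and D2 were the mutants with 1 library each, and they had the highest Gdf9 and Gja4 and the lowest Kit levels of the mutants; the part of this in the spread was not tested.

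**Figure D2:**
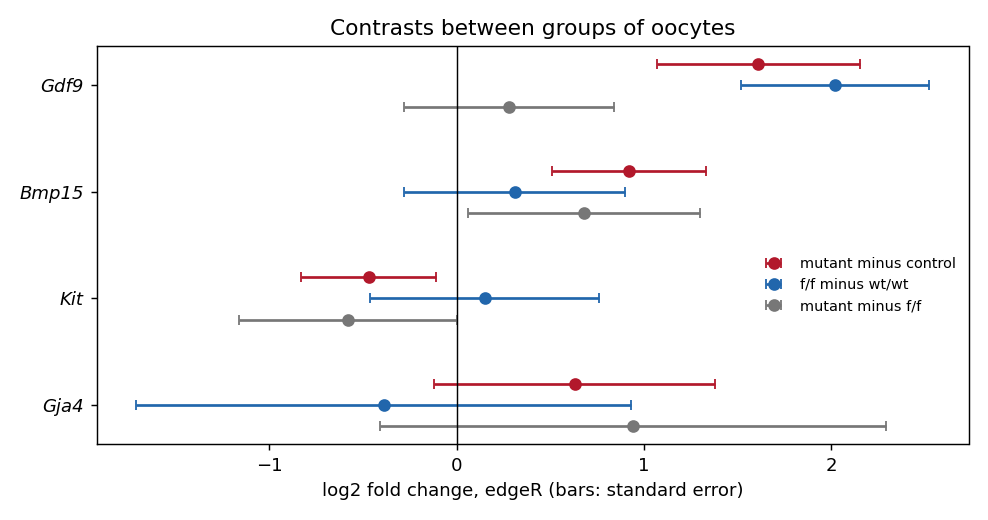
Log2 fold changes of the members with enough counts, Gdf9, Bmp15, Kit and Gja4 (horizontal axis), for mutant minus control, f/f minus wt/wt and mutant minus f/f oocytes, with bars of 1 standard error from edgeR. For Gdf9 the value of f/f minus wt/wt, 2.02, lies above that of mutant minus control, 1.61, and mutant minus f/f lies near 0 at 0.28. The bars of Gja4 are the widest.

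Ratios of counts within an oocyte do not depend on the scaling between oocytes, so each other member was also set against Gdf9. For every 1000 counts of Gdf9, Kit had 39.0, 12.2, 27.8 and 12.3 counts in wt1, wt3, wt4 and wt5. It had 5.44 in C3 and 1.26, 1.69, 4.77, 4.73 and 4.76 in D1, D2, D3, D4 and D7. Every mutant lay below every control, with C3 the nearest control. Single libraries did not keep this order throughout. The C3 library without the name suffix DNA had 452 Kit to 95789 Gdf9 counts. The D3 library with it had a higher ratio, 141 to 23656. The mean log2 ratio of Kit to Gdf9 was -6.01 ± 1.12 (SD, n = 5) in control and -8.40 ± 0.94 (SD, n = 5) in mutant oocytes, a difference of -2.38. In the two-sided exact permutation test this gave p = 0.00794, the smallest that 5 against 5 oocytes allow, and an adjusted p of 0.0397 over the 5 ratios. With 1 library per oocyte the adjusted p was the same, both without the suffix DNA (difference -2.46) and with it (-2.25). The difference was -2.05 to -2.76 when 1 oocyte was left out. The adjusted p was then 0.0794, above the threshold, without any oocyte other than C3, and 0.0265 without C3; p itself cannot go below 0.0159 with 4 against 5 oocytes. The ratio shows unequal change of the 2 genes, of which Gdf9 alone was called.

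The log2 ratio of Bmp15 to Gdf9 was -0.93, -1.91, -1.47 and -0.88 in the wt/wt oocytes, -2.89 in C3 and -2.82, -2.86, -2.05, -1.99 and -2.43 in the mutants. Bmp15 counts relative to Gdf9 were thus higher in each wt/wt oocyte than in any other oocyte, and C3 had the lowest ratio of all 10. Mutant and control oocytes differed by -0.81 (exact permutation test, p = 0.0794, adjusted p = 0.132). Against the wt/wt oocytes alone the difference was -1.13 (adjusted p = 0.0265). For Gja4 to Gdf9 the difference was -1.91 (p = 0.111, adjusted p = 0.139, exact permutation test). Bmp6 was at 0 in 7 of 10 oocytes and Fgf8 in 5, so their values depend on the pseudocount and are no folds. With a pseudocount of 0.5 the exact permutation test gave adjusted p = 0.0992 for Bmp6 and 0.849 for Fgf8, and with one of 2 it gave 0.0992 and 0.103.

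**Figure D3:**
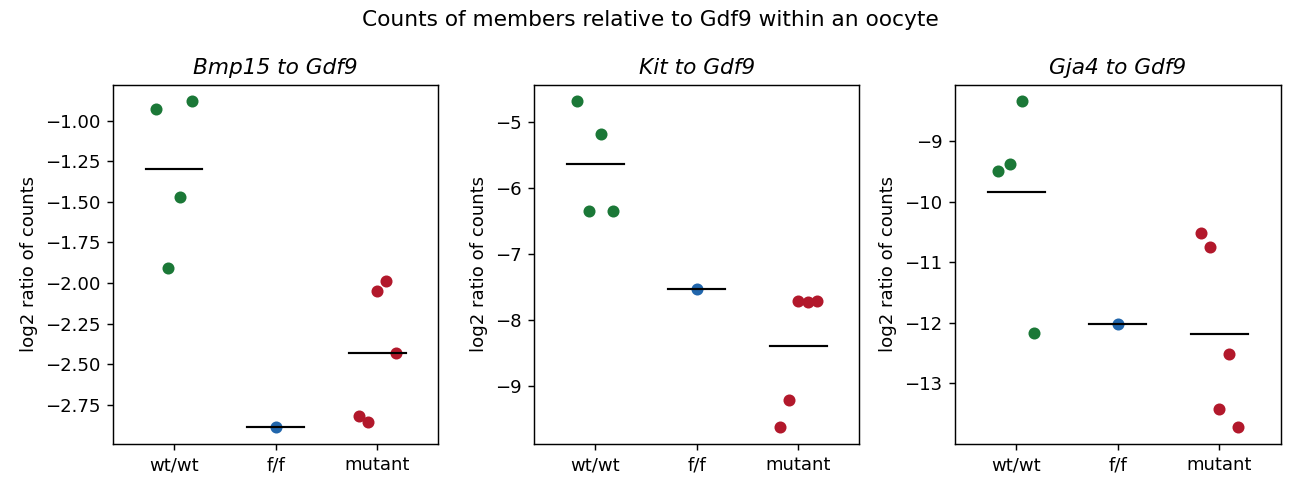
Log2 ratio of the counts of Bmp15, Kit and Gja4 to those of Gdf9 within each oocyte (vertical axis), for wt/wt, f/f and mutant oocytes. Each point is an oocyte and the line is the mean of its group. The Kit ratios of the mutants, -7.71 and below, lie under that of the f/f oocyte at -7.52 and those of the wt/wt oocytes, -6.35 and above.

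Between genes, levels were compared in CPM per kb of transcript. In wt/wt oocytes the order was Gdf9 (5250 ± 2300, SD, n = 4), Bmp15 (1360 ± 936), Kit (35.8 ± 11.8), Gja4 (7.05 ± 5.29), Bmp6 (1.86 ± 1.76) and Fgf8 (listed at 0). Gdf9 and Bmp15, the ligand pair, thus stood far above the other members. In the f/f oocyte the order was Gdf9 (21300), Bmp15 (1690), Kit (39.7), Gja4 (5.39), Fgf8 (0.379) and Bmp6 (0). In mutant oocytes Gdf9 stood at 25900 ± 9410 CPM per kb (SD, n = 5), Bmp15 at 2700 ± 445, Kit at 26.4 ± 10.2, Gja4 at 10.6 ± 12.2, Fgf8 at 0.781 ± 0.491 and Bmp6 at 0. The ranges of mean ± SD overlapped between Kit and Gja4 in the mutants and between Gja4 and Bmp6 in the wt/wt oocytes. In the mutants that of Gja4 also held Fgf8 and Bmp6, so the order below Kit was not separated. The cDNA method reaches about 3 kb from the 3′ end, and with lengths held to at most 3 kb Kit, the longest transcript, was at 62.5 in wt/wt and 46.2 in mutant oocytes, and the order of the genes stayed as it was.

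The profile of each member over the 10 oocytes was compared with all other genes kept, by the root mean square difference of log2 CPM centred on the gene's mean (prior count of 2). The genes nearest to Gdf9 were Pbx4 (0.25) and Surf2 (0.28), and those nearest to Bmp15 were Me1 (0.30) and Rbm45 (0.32). Pbx4 and Rbm45 were low, at 0.112 and 1.01 CPM in wt/wt oocytes. Nearest to Kit were Ube2q2 (0.25) and Slc7a11 (0.28), to Gja4 Mcrs1 (0.51) and Pnkd (0.58), and to Bmp6 Gm10509 (0.47) and Gm16796 (0.47). Among the members, Gdf9 and Bmp15 were the most alike (0.71) and Gdf9 and Bmp6 the least (2.81). These are descriptions over 10 oocytes that share their libraries.

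The genes around the members in their pathways were counted by list. Of 18 receptors and Smad proteins of the TGF-beta family, 15 were tested, 6 were called lower and 0 higher in mutants (median log2 fold change -0.67, against 0.17 over all genes, of which 11.2% were called lower). With the f/f oocyte alone as control none of the 15 was called, and with every library as a sample and a replicate block 2 were. Acvr1, a BMP type I receptor gene, fell from 21.8 ± 8.97 to 1.53 ± 0.871 CPM (SD, n = 5 each; adjusted p = 0.000548, edgeR), and Acvr1b fell from 5.53 ± 2.76 to 1.10 ± 0.935, both to levels near that of 3 counts. Smad2 (-1.42) and Bmpr1a (-1.38) fell too. For Smad2, C3 at 54.9 CPM lay nearer the mutants (38.6 ± 13.5) than the wt/wt oocytes (116 ± 24.3). Bmpr1b and Bmpr2, the type I and type II receptors of BMP15, were named after their values were seen. Bmpr1b fell from 653 ± 103 to 302 ± 67.5 CPM (log2 fold change -1.11, adjusted p = 0.0157, edgeR), with C3 at 815, and was not called after removal of GC and length trends. Bmpr2 had a log2 fold change of -0.89 (adjusted p = 0.0421), under the fold required for a call. Neither Smad4, the common partner (0.26), nor Smad3 (-0.67) was called.

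Most other ligands and antagonists of the family had no count in these oocytes. Of 29 listed, 17 were at 0 throughout and 4 were tested, of which 0 were called (median log2 fold change 0.95). Proprotein convertases cleave GDF9 and BMP15 to their mature forms, and Furin was the 1 of 3 tested that was called. Over all genes 25.9% were called, and with 4 and 3 genes tested neither count stands out from that share. It rose from 327 ± 190 to 695 ± 164 CPM (SD, n = 5 each; log2 fold change 1.09, adjusted p = 0.0447, edgeR), and C3, at 656 CPM, lay with the mutants. The call of Furin depended on the settings and on single oocytes. No convertase was called with library totals, no filter, every library or 1 library per oocyte as samples, GC and length trends removed, the f/f oocyte alone as control, or without wt1, wt3, wt4, wt5, D1, D2, D3 or D7.

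Of 16 genes of the FGF8 pathway, 7 were tested, 1 was called higher and 3 were called lower (median -1.11). With every library as a sample and a replicate block 0 of them were called. Over all genes tested 14.7% were called higher and 11.2% lower, and the median was 0.17. Dusp6, a phosphatase of ERK, was called higher (0.685 ± 0.699 CPM in controls, 6.09 ± 4.51 in mutants), and Spry1, an inhibitor of the pathway, lower (5.34 ± 6.05 and 0.570 ± 0.556). No fold is given for these, since 1 of their groups lay near the level of 3 counts. The inhibitor gene Spry4 (-1.61) and the receptor gene Fgfr2 (-1.38) fell. Of 36 genes of the KIT pathway, 33 were tested, 4 were called higher and 6 lower (median -0.34). That share is near the 25.9% of all genes. The 10 calls fell to 3 without D1, and to 3 with every library as a sample and a replicate block. They fell to 5 without wt3, wt4 or wt5, and to 6 without wt1, D2, D3 or D4. Mapk3, which encodes ERK1, rose from 23.0 ± 14.5 to 287 ± 228 CPM (SD, n = 5 each; log2 fold change 3.64, adjusted p = 0.000953, edgeR), and Hras was called higher from a level near that of 3 counts (1.09 ± 0.659 CPM in controls, 8.50 ± 7.58 in mutants). Nras (-2.05) fell. Rps6 was called lower too (30.7 ± 26.7 CPM in controls, 5.82 ± 4.00 in mutants), but C3, at 1.33, lay below the mutant mean. Kitl, the ligand gene that belongs to granulosa cells, had 5.64 ± 4.14 CPM in controls and 4.32 ± 2.34 in mutants (SD, n = 5 each; log2 fold change -0.34, adjusted p = 0.725).

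Of 24 other connexins and junction partners, 9 had no count, 7 were tested and 1 was called higher. That share is near the 14.7% of all genes called higher. Tjp1, the scaffold protein ZO-1 of cell junctions, rose from 15.2 ± 11.7 to 91.7 ± 41.3 CPM (SD, n = 5 each; log2 fold change 2.58, adjusted p = 0.00457, edgeR). Gja1, the main connexin gene of granulosa cells, had 1.65 ± 2.63 CPM in controls and 0.0607 ± 0.136 in mutants (SD, n = 5 each) and was not tested. Among 7 transcription factors of oocytes, of which NOBOX and FIGLA are known regulators of oocyte genes, 6 were tested, 3 were called higher and 1 lower, against 14.7% and 11.2% of all genes. Lhx8 (3.17) and Nobox (2.62) rose, and Taf4b (-1.96) fell. Figla, the third that was called higher, had 1 count in wt4, 4 in C3 and 0 in the other controls, and 61, 20, 9, 316 and 2 in the mutants. It passed the filter only through the mutants, and no fold is given. C3, the only control of the mutants' strain, is 1 oocyte, so its calls against wt/wt are not counted for these lists. Its log2 difference from wt/wt was -4.79 for Rps6, 1.42 for Furin and -1.15 for Spry4, in the direction of the mutants. For Acvr1b (1.01) and Bmpr1b (0.41) it went the other way, and for Mapk3 (-0.09) and Lhx8 (0.19) it was small.

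**Figure D4:**
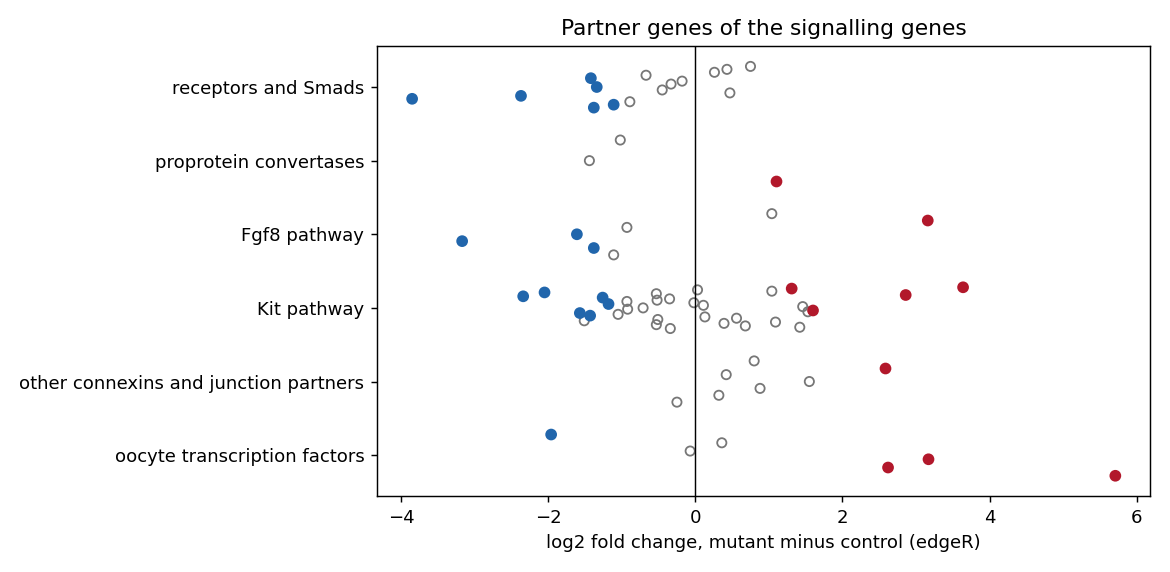
Log2 fold change of mutant minus control oocytes from edgeR (horizontal axis) for each tested gene of 6 lists around the members. Filled red points were called higher, filled blue points called lower, and open points not called; the vertical spread of points in a row carries no value. The row of receptors and Smads holds 6 blue and no red points, and the row of oocyte transcription factors holds 3 red and 1 blue. The rightmost point, Figla, had 5 counts in all controls together, and its place depends on the prior count.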

How the data were processed

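Single ovulated oocytes were reverse transcribed with poly(A) priming, giving cDNA of up to about 3 kb from the 3′ end, and sequenced as single-end reads of 49 bases. The authors filtered the reads, aligned them to mm10 with TopHat2 2.0.6, retained unique best alignments and tallied these over RefSeq genes with HTSeq (per the processing notes), and the deposited values are raw counts, not normalized. All 14 columns were assigned to libraries. Libraries that share an oocyte name, 1 of them with the suffix DNA, of unstated meaning, were summed to 10 oocytes, although the descriptions number them as separate oocytes.

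Genes were kept in the top 60% by total count (9198 of the 15432 with a count) and fitted in R 4.3.3 with edgeR 4.0.16 (TMM, glmQLFit, glmQLFTest, Benjamini-Hochberg adjustment). Control and mutant oocytes were compared with genotype as the one term. The f/f oocyte was compared in a fit with 3 groups. The TMM factor of the f/f oocyte was 0.652, against 1.30 to 1.36 in wt/wt oocytes, and edgeR estimated a common biological coefficient of variation of 0.609. Ratios to Gdf9 were tested by two-sided exact permutation over oocytes. Gene coordinates and lengths came from GENCODE on GRCm38 and promoter windows from RefSeq (GRCm38.p6). The procedure was also run on simulated counts, with few genes changed and the same spread set for every gene. That setting is unlike these data, so the run is no test of the calls made here.

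All 6 members were named, with the 2 genes of nearest profile for each member tested, up to 4 called genes per list by size of change, Kdm1a, and Hprt, Gapdh and Ppia. The members and lists were chosen with earlier results of these data known. Alternatives were DESeq2 1.42.0, limma 3.58.1 voom, other scalings and filters, a ratio to the 3 reference genes, other uses of the libraries and controls, counts thinned to 1375187 per oocyte, removal of GC and length trends (loess, span 0.5), and leaving out each oocyte. Totals of 1375187 to 6928548 counts set 3 counts at up to 1.82 CPM in an oocyte. The reads carry no molecular identifiers and PCR copies are not independent, so intervals cover counting error only.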

Additional observations from a re-analysis of the deposited data

Results flagged for a closer look

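In 5 of 36 groups of 4 or 5 oocytes tested, 1 oocyte stood far from the others by Dixon's test, which chance alone does in about 1 in 20 groups. The f/f oocyte C3 stood above the other controls in its Gdf9 level, at 38200 CPM, in its Fgf8 level, at 0.443 CPM from 2 counts where the other controls had none, and in its total of 6928548 counts. Among the wt/wt oocytes, wt5 stood above the others in its Bmp15 level, at 8400 CPM. Among the mutants, D4 stood above the others in its total of 6926076 counts. C3 and D4 are each the sum of 2 libraries. Without C3 the log2 fold change of Gdf9 was 2.32 in place of 1.61, and without wt5 that of Bmp15 was 1.34 in place of 0.92.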

How the results depend on the processing

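The number of genes called was 2385 and stayed within 1.5 times of it except with libraries as samples and a replicate block (966) and with the f/f oocyte alone as control (106), and it ran from 1607 to 2885 when 1 oocyte was left out. Of the members, 2 were called, and 1 was with DESeq2, no filter, filterByExpr, each library as a sample of its own, 1 library per oocyte without the suffix DNA, or GC and length trends removed. Voom called 3. None was called with the replicate block or with the f/f oocyte alone, and 0 to 2 were when 1 oocyte was left out, with 0 without wt1. Under filterByExpr and without wt1 Bmp6 was not kept, and with the f/f oocyte alone it had no counts to compare, so no value is given. Numbers in the descriptions are shared by few wt/wt and mutant oocytes, and the correlation of their deviations was 0.07, 0.10 and -0.09, so the samples share only a number.

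Gdf9 was no longer called with no filter (1.59), every library (1.10), 1 library per oocyte without the suffix DNA (1.55), the replicate block (1.59), the f/f oocyte alone (0.28), GC and length trends removed (1.10) and the ratio to the reference genes (0.63), and its log2 fold change was 1.41 to 2.32 when 1 oocyte was left out. Among the reference genes themselves Hprt had a log2 fold change of -0.03, Ppia 1.10 and Gapdh 2.32, and Gapdh was called (adjusted p = 0.0187, edgeR). Bmp15 was called by voom (1.33), reversed in the ratio to the reference genes (-0.18), and ran from 0.74 to 1.34 with 1 oocyte left out. Bmp6 was not called by DESeq2 (-6.22), with the replicate block (-5.10) or in the ratio to the reference genes (-4.35), with -7.25 to -6.64 when 1 oocyte was left out; with 0 counts in every mutant, these fitted values are set by prior or pseudocounts and are no folds. Kit passed the test only in the ratio to the reference genes (-1.75, adjusted p = 0.0397, exact permutation test), where adjusted p over its alternatives ran from 0.0397 to 0.599. Gja4, never called, reversed by voom (-0.14), with GC and length trends removed (-0.57) and in the ratio to the reference genes (-1.28), and ran from -0.12 to 1.18 with 1 oocyte left out.

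Between f/f and wt/wt oocytes Gdf9 was not called under upper-quartile scaling (1.83), library totals (0.99) or thinned counts (1.77), and ran from 1.86 to 2.38 with 1 oocyte left out, with the call lost without wt1, wt3 or wt4. Bmp15 reversed under library totals (-0.73). Kit reversed under upper-quartile scaling (-0.03) and library totals (-0.87) and ran from -0.09 to 0.29, and Gja4 reversed in thinned counts (0.04) and ran from -0.69 to 0.21. Of the ratios to Gdf9, those of Bmp15 (-1.13) and Bmp6 (-6.37) passed against wt/wt oocytes alone, and that of Bmp6 in thinned counts (-4.33). In wt5 and every mutant Bmp6 had no count, so its ratio there is set by the pseudocount and the Gdf9 count. The passes of Bmp6 thus carry the change of Gdf9 and are no test of Bmp6 itself. With 1 oocyte left out the ratios ran from -1.13 to -0.63 for Bmp15, -6.37 to -3.95 for Bmp6, -2.76 to -2.05 for Kit and -0.44 to 0.32 for Fgf8, which also reversed with 1 library per oocyte without the suffix DNA (0.02). Library totals moved the median over all genes by -0.39 (log2) and the higher share of calls from 56.7% to 36.7%, and GC and length correction shifted them by -0.21 and to 45.4%. The cause of these changes was not tested.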
